A study of Mus musculus with 46 samples.

Results

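The genes described here are S1pr1, S1pr4, Klf2, Foxo1, Cd69 and Itgb7, a set tied to T-cell maturation and exit from the thymus. They were taken by symbol from the deposited gene table, and all 6 are present among its 19521 genes. RNA sequencing covered 40 libraries of sorted mouse T cells. TG libraries come from C57BL/6 mice with the genotype hCD2-LMO2 knock-in, and WT libraries from wild type C57BL/6 mice. TG groups of 3 libraries each were DN1, DN3, DN, DP, CD4SP and CD8SP thymocytes and splenic CD4+ (S_CD4) and CD8+ (S_CD8) T cells. WT groups were the same thymic stages, with 3 libraries each except DN1, which has 1. The series also holds anti-LMO2 ChIP, which is not used here. No WT spleen library and no treatment is among the samples, and the labels give no age of the mice.

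DN cells carry neither CD4 nor CD8, and DN1 and DN3 are early subsets of them. DP cells carry both, and CD4SP and CD8SP are the single-positive cells. Thymocytes leave the thymus by following sphingosine 1-phosphate (S1P), which is abundant in blood, through the receptor S1PR1. FOXO1 drives transcription of Klf2, and KLF2 in turn drives S1pr1. CD69 binds S1PR1 and removes it from the cell surface, so newly selected cells that express it stay in the thymus until it declines. S1pr4 encodes another S1P receptor of lymphocytes. Itgb7 encodes the integrin beta 7 chain, which pairs with alpha 4 or alpha E and guides T cells to the gut. LMO2 is a bridging protein of blood stem-cell transcription factor complexes and an oncogene of T-cell leukaemia, and the human CD2 control element directs the transgene to T cells.

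The promoters of Klf2 and Itgb7 are shown because these genes differed most between genotypes at the DN3 stage. They come from RefSeq on build GRCm38.p6, and each covers 250 bases before to 50 bases after the start site the table uses. Promoters were found there for 4 of the 6 genes (Klf2, Itgb7, S1pr4 and Foxo1). Capitals mark CACCC or its reverse complement GGGTG, the core letters bound by KLF proteins, searched on both strands.
Klf2, chr8:72318812-72319111, plus strand: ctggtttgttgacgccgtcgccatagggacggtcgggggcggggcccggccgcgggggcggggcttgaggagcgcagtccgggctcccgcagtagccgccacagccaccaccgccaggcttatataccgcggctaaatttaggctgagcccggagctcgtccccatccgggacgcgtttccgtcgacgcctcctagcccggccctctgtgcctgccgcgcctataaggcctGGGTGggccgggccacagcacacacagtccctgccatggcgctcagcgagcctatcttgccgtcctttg
Itgb7, chr15:102231886-102232185, minus strand: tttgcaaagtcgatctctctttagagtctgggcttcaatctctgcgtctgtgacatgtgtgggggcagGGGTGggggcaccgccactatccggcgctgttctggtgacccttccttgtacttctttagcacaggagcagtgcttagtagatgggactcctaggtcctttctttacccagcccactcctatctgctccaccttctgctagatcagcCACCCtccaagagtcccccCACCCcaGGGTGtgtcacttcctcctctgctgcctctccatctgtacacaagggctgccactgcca
The Itgb7 window held 4 matches, which begin 182, 35, 16 and 9 bases before the start site. This window lies inside the annotated Itgb7 gene, which spans 102215994 to 102233405, so the gene's annotated beginning lies upstream of it. The Klf2 window held 1 match, 19 bases before the start site, the S1pr4 window held 1, and the Foxo1 window held none. At least 1 match occurs in 57.5% of 32851 promoters of this length, and 4 or more occur in 3.1%. E-box letters (CANNTG, both strands), bound by partners of LMO2, were found 4 times in S1pr4, 2 times in Itgb7, 1 time in Foxo1 and not in Klf2, against 72.3% of promoters with any. No E-box match overlapped a CACCC match in these 4 windows. Neither GATAA (25.4% of promoters) nor the FOXO letters GTAAACA (3.65%) occurred in any of the 4 windows, on either strand. A match is a description of letters and not of binding.

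Library totals lay between 17211426 and 28842773 reads. Lmo2 was at 16.5 to 87.1 CPM (read counts scaled to a common library size) in 23 TG libraries and at 0.397 CPM in TG DP replicate 3, which is within the 0.122 to 0.479 CPM of WT DP. TG DN1 had 35.1 to 44.2 CPM of Lmo2, against 30.7 CPM in WT DN1. The library labelled TG CD4SP replicate 1 had 191 CPM of Cd4, and the library labelled TG CD4SP replicate 2 had 3070 CPM of Cd8a and 6440 CPM of the recombinase gene Rag1. TG CD4SP replicate 3 had 1300 CPM of Cd4, 825 CPM of Cd8a and 2270 CPM of Rag1. WT CD4SP libraries had 1390 to 1870 CPM of Cd4, 43.5 to 146 CPM of Cd8a and 48.7 to 292 CPM of Rag1. Replicate 3 of both CD8SP groups carried Cd4, at 1410 CPM in TG and 843 CPM in WT, and Rag1, at 6100 CPM in TG and 2980 CPM in WT. TG S_CD8 replicate 1 had B-cell markers that summed to 3350 CPM and 416 CPM of Cd8a. DN1 libraries of both genotypes had 407 to 666 CPM of Cd4 although DN1 cells carry no CD4 protein. Whether replicates are separate mice is not stated, so p-values measure the spread between these libraries, which may be technical. In sorted pools such as these, fewer cells of a type and less RNA per cell cannot be told apart.

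In WT thymocytes the 6 genes were low in DN3, and their paths to the single-positive stages differed. Levels are given as CPM after TMM scaling over the 40 libraries, with SD and n = 3 unless stated. Adjusted p-values are Benjamini-Hochberg values over all genes tested, from the quasi-likelihood test of edgeR. Cd69 averaged 47 ± 8.03 CPM in WT DP and 7.41 ± 0.741 CPM in WT DN3, a log2 change of 2.66 ± 0.17 (SE; adjusted p = 2.79e-06 by edgeR). Its early rise came with rises of Foxo1 (1.57 ± 0.17), Itgb7 (1.32 ± 0.28) and S1pr4 (1.09 ± 0.19), with adjusted p of 5.48e-05, 0.00314 and 0.00107 by edgeR. S1pr1 (-0.50 ± 0.53) and Klf2 (-0.27 ± 0.34) had adjusted p of 0.435 and 0.519 by edgeR, and their WT DP and WT DN3 libraries overlapped. So 4 of 6 members rose and 0 fell between these stages, where 28.6% of all genes were higher and 31.4% lower.

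**Figure D1:**
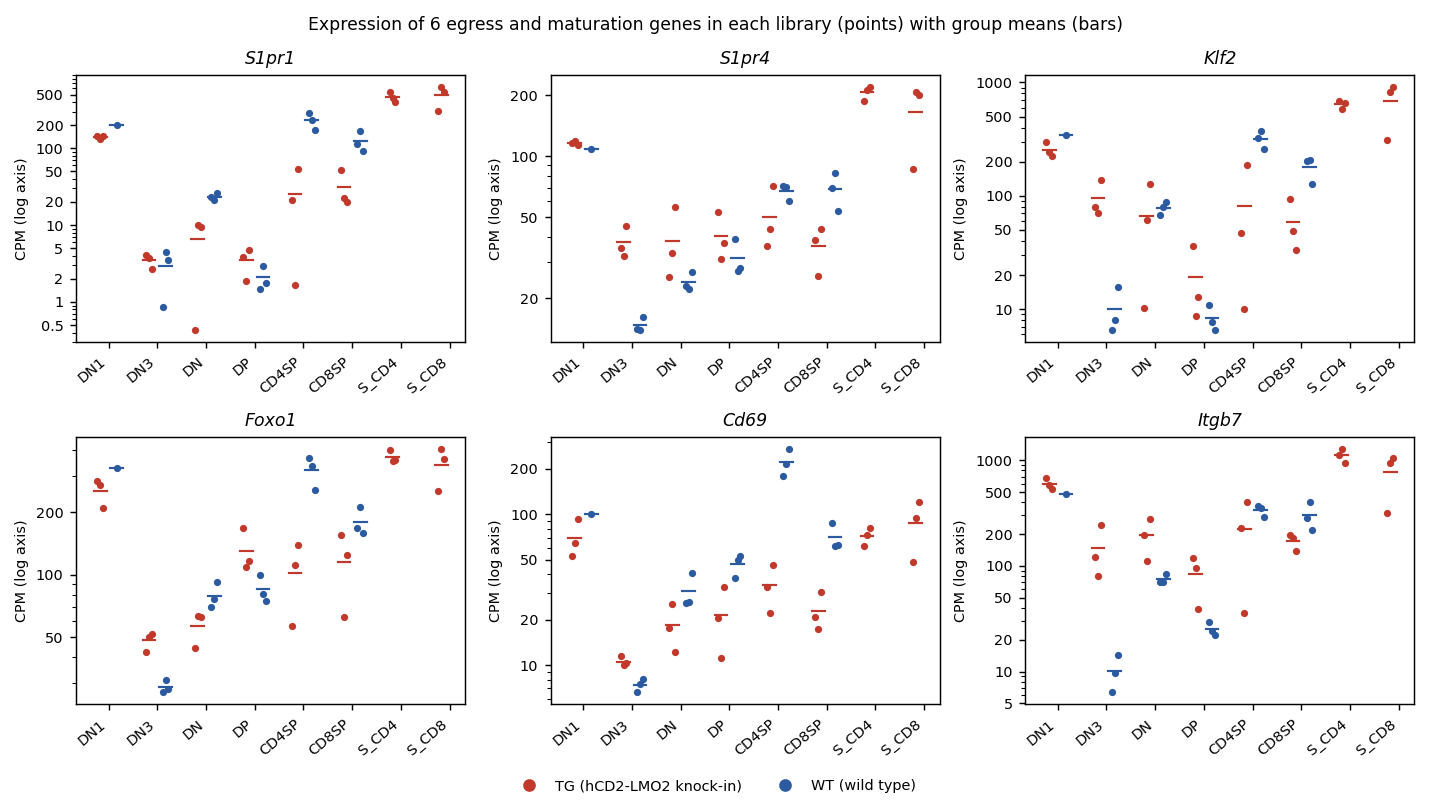
CPM (log axis) of each gene in each library, by stage on the horizontal axis, with TG points left of WT points and a bar at each group mean. S1pr1 is near its lowest in DP and DN3, Klf2 in DP and in WT DN3 but not in TG DN3, and both are highest in spleen, where TG libraries alone were sampled, and Cd69 is highest in WT CD4SP (178 to 271 CPM).

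All 6 genes were higher in WT CD4SP than in WT DP, and again in WT CD8SP than in WT DP. The percentage of all genes called was 23.4% higher and 20.5% lower for CD4SP, and 20.8% higher and 16.9% lower for CD8SP.
S1pr1 changed most. It had 290, 232 and 173 CPM in WT CD4SP, against 1.49, 2.97 and 1.79 CPM in WT DP, a 115-fold difference (log2 6.84 ± 0.34, adjusted p = 1.63e-05 by edgeR). WT CD8SP had 112, 170 and 91 CPM, 60.1-fold above WT DP (log2 5.91 ± 0.36, adjusted p = 0.000138 by edgeR). Every single-positive library was far above every DP library.
Klf2, the upstream factor, had 324, 375 and 257 CPM in WT CD4SP, against 10.9, 7.62 and 6.53 CPM in WT DP. It was 39.6-fold higher in CD4SP (log2 5.31 ± 0.28, adjusted p = 1.99e-05 by edgeR) and 21.7-fold higher in CD8SP (log2 4.44 ± 0.29, adjusted p = 0.000156 by edgeR). Foxo1 changed less, by 1.95 ± 0.19 in CD4SP and 1.08 ± 0.19 in CD8SP on the log2 scale.
Itgb7 had 366, 354 and 289 CPM in WT CD4SP and 286, 403 and 219 CPM in WT CD8SP, against 29.7, 24.2 and 22.2 CPM in WT DP. That is 13.7-fold and 12.1-fold above WT DP. S1pr4 was 2.22-fold above WT DP in both single-positive groups.
Cd69, the brake on S1PR1, had 178, 215 and 271 CPM in WT CD4SP, against 37.9, 49.9 and 53.2 CPM in WT DP (log2 2.29 ± 0.20, adjusted p = 0.000159 by edgeR). In WT CD8SP it had 87, 61.3 and 62.5 CPM (log2 0.60 ± 0.19 over DP, adjusted p = 0.0408 by edgeR). The CD8SP rise of Cd69 was called in 7 of 13 alternative analyses, and every other rise of this pair of comparisons in all of them.

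WT CD8SP and WT CD4SP differed in 4 of the 6 genes, all lower in CD8SP, where 24.1% of all genes were higher and 20.6% lower. Cd69 was 3.1-fold lower in CD8SP (log2 -1.63 ± 0.21, adjusted p = 0.000597 by edgeR). Foxo1 (-0.81 ± 0.18), Klf2 (-0.80 ± 0.22) and S1pr1 (-0.87 ± 0.26) had adjusted p of 0.007, 0.0186 and 0.0266 by edgeR. WT CD8SP replicate 3, which carried Cd4 and Rag1, takes part in this difference. Without replicate 3 of the CD8SP group, S1pr1 was at -0.67 ± 0.26 (adjusted p = 0.0751 by edgeR) and the other 3 were still called. Without WT CD4SP replicate 2, 2 members were called. S1pr4 (0.06 ± 0.17) and Itgb7 (-0.13 ± 0.22) had overlapping libraries. Of 6 markers of immature thymocytes, 6 were higher in WT CD8SP than in WT CD4SP (median log2 change 3.21). Of 9 genes induced by T-cell receptor signalling, 8 were lower (median -1.48). Ptcra, the pre-T-cell receptor alpha chain, had 38.3 to 53.6 CPM in WT CD8SP, 2.22 to 11.2 CPM in WT CD4SP and 35.1 to 42.3 CPM in WT DP. The part of maturity in the members' differences was not tested.

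On a per-length scale, the order of the genes in WT CD4SP was Klf2 (195 ± 38 FPKM), Cd69 (149 ± 30 FPKM), Itgb7 (136 ± 19.1 FPKM), S1pr1 (82.2 ± 22 FPKM), Foxo1 (60.4 ± 11.7 FPKM) and S1pr4 (30.6 ± 3.36 FPKM). In TG CD4SP, Itgb7 stood first at 88.4 ± 72.6 FPKM and S1pr1 last at 8.94 ± 9.19 FPKM. The spread among the TG libraries was about as large as these means. Over all 14 groups, S1pr1, Klf2, S1pr4, Itgb7 and Foxo1 had their 2 highest means in TG spleen, whereas Cd69 was highest in WT CD4SP and did not overlap the next group, WT DN1. WT DN3 was the lowest group for S1pr4, Cd69, Itgb7 and Foxo1, and its libraries did not overlap the next group in any of these 4. S1pr1 and Klf2 were lowest in WT DP, overlapping WT DN3.

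In DN3 cells the transgenic animals expressed 5 of the 6 genes at higher levels, and 0 were lower. Over all genes tested, 23.4% were higher and 22.2% lower in TG DN3, so the share of genes called was large here in both directions. Itgb7 had 121, 80 and 244 CPM in TG DN3, against 6.38, 9.73 and 14.4 CPM in WT DN3. The lowest TG library was more than 5 times the highest WT library, and the fitted difference was 14.8-fold (log2 3.89 ± 0.50, adjusted p = 0.00105 by edgeR). TG DN3 replicate 3 was the highest library in both Itgb7 and Klf2. Klf2 had 80, 70.3 and 139 CPM in TG DN3, against 6.53, 8.03 and 15.7 CPM in WT DN3, a 9.72-fold difference (log2 3.28 ± 0.41, adjusted p = 0.000944 by edgeR). Again no TG library overlapped a WT library. Foxo1 had 42.5, 50.2 and 51.8 CPM in TG DN3, against 27.1, 31.2 and 28 CPM in WT DN3 (log2 0.76 ± 0.12, adjusted p = 0.00127 by edgeR).
The S1P receptors parted. S1pr4 had 35.2, 32.2 and 45.5 CPM in TG DN3, against 14, 13.9 and 16.2 CPM in WT DN3 (log2 1.38 ± 0.16, adjusted p = 0.000238 by edgeR). S1pr1, a target of KLF2, had 4.05, 3.68 and 2.71 CPM in TG DN3, against 0.849, 4.49 and 3.51 CPM in WT DN3. Its libraries overlapped (log2 0.26 ± 0.50, adjusted p = 0.696 by edgeR), while those of Klf2 did not. Cd69 had 11.4, 9.95 and 10.3 CPM in TG DN3, against 6.6, 7.54 and 8.07 CPM in WT DN3. This small rise (log2 0.53 ± 0.16, adjusted p = 0.0259 by edgeR) was called in 6 of 11 alternative analyses, and the other 4 rises in all 11.

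Other genes of the pathway were read from lists. Of 12 genes of S1P receptor signalling and motility, 9 rose and 0 fell in TG DN3, among them Arrb1 (log2 1.83 ± 0.13), an arrestin, Stk4 (1.01 ± 0.12), a Hippo-pathway kinase, and Dock2 (0.76 ± 0.13), an activator of Rac. Of 13 homing receptor and integrin genes, 4 rose and 3 fell, near the 23.4% higher and 22.2% lower of all genes. Ccr9 (-3.06 ± 0.23), a chemokine receptor of thymocytes, fell. The partners of the beta 7 chain, named here for that pairing, parted: Itga4 (1.65 ± 0.31), the alpha 4 chain, rose, and Itgae (-3.51 ± 0.57), the alpha E chain, fell. Of 6 other Klf and Foxo genes tested, 4 rose, led by Foxo3 (1.40 ± 0.13). Markers of late maturation went the other way: of 9 tested, 0 rose and 6 fell, led by H2-Q7 (-4.82 ± 0.18). Among those that fell, Ifngr1 and Tnfrsf1a were also lower in WT CD4SP than in WT DP (-2.22 ± 0.16 and -0.83 ± 0.27). Markers of immaturity also fell: of 6, 0 rose and 3 fell, namely Rag2 (-2.95 ± 0.30) and Rag1 (-1.04 ± 0.31), the recombinase genes, and Cd24a (-0.97 ± 0.12). S1pr3 was at 0.059 ± 0.0405 CPM in TG DN3 and 3.45 ± 0.114 CPM in WT DN3. The median log2 change was 1.07 for the 6 members, 0.52 for the signalling list and 0.17 for the homing list. It was 0.55 for the Klf and Foxo list, -0.66 for the maturation list and -0.61 for the immaturity list. Over all genes tested it was -0.03. Of 8 tested genes of S1P metabolism and transport, 2 rose and 0 fell (median 0.93). Of 9 genes induced by T-cell receptor signalling, 4 rose and 2 fell (median 0.87). Of 7 PI3K and Akt genes, 1 rose and 1 fell (median 0.21). Of 2 other S1P receptor genes tested, 0 rose and 1 fell (median -2.97).
Other marker sums also separated the DN3 genotypes. Endothelial markers summed to 196 to 291 CPM in TG DN3 and 98 to 125 CPM in WT DN3, where Tek, 1 of the 4, was at 0, and early thymocyte markers to 1660 to 1780 CPM in TG DN3 and 1310 to 1490 CPM in WT DN3. T-cell markers summed to 2640 to 2900 CPM in TG DN3 and 4420 to 5140 CPM in WT DN3, and thymic epithelial markers to 10.4 to 22.7 CPM in TG DN3 and 51.7 to 58.2 CPM in WT DN3. Ptcra, the pre-T-cell receptor alpha chain and a mark of DN3 cells, had 15.3 to 37.4 CPM in TG DN3 and 187 to 215 CPM in WT DN3. B-cell markers summed to 8.56 to 13.3 CPM in TG DN3 and 24.9 to 34.4 CPM in WT DN3, and myeloid markers to 2.28 to 3.71 CPM in TG DN3 and 8.67 to 11.5 CPM in WT DN3. The part of these lists in the members' values was not tested.

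Total DN cells showed less. Itgb7 had 195, 112 and 277 CPM in TG DN, against 70.1, 70 and 84 CPM in WT DN (log2 1.33 ± 0.30, adjusted p = 0.0293 by edgeR). It was the 1 member that rose, and 0 fell, where 7.47% of all genes were higher and 4.89% lower. Leaving out any of the 3 WT DN libraries or TG DN replicate 3 ended this call, with adjusted p of 0.0723 to 0.137. Those fits called 252, 179, 888 and 371 genes in all, beside 1547 with every library. Names of 12 count columns end in N, a mark the labels do not explain; a term for it leaves TG DN replicate 2 alone to set against WT DN, and Itgb7 was then at 0.54 ± 0.22 (adjusted p = 0.397 by edgeR). S1pr1 had 0.431, 9.9 and 9.47 CPM in TG DN, against 23, 21.1 and 26.5 CPM in WT DN. All TG libraries were below all WT libraries, but replicate 1 set the TG spread (log2 -1.89 ± 0.89, adjusted p = 0.204 by edgeR). Without TG DN replicate 1, S1pr1 was at -1.33 ± 0.21 (adjusted p = 0.0066 by edgeR). The same library was the lowest for Klf2, at 10.2 CPM beside 60.8 and 127 CPM in the other TG DN libraries, against 68.3, 79.7 and 87.5 CPM in WT DN. Summed markers of B cells were 24.2 to 192 CPM in TG DN and 112 to 253 CPM in WT DN. Erythroid markers summed to 46.3 to 2700 CPM in TG DN and 1520 to 21800 CPM in WT DN, and markers of memory or activated T cells to 57.5 to 354 CPM in TG DN and 278 to 476 CPM in WT DN. TG DN replicate 1, the lowest library for S1pr1 and Klf2, was also the lowest in these 3 sums. Early thymocyte markers summed to 742 to 1040 CPM in TG DN and 518 to 738 CPM in WT DN, and NK and innate markers to 123 to 278 CPM in TG DN and 99 to 112 CPM in WT DN. Endothelial markers summed to 185 to 335 CPM in TG DN and 96.7 to 130 CPM in WT DN. DP markers summed to 1560 to 1870 CPM in TG DN and 2160 to 2580 CPM in WT DN, and thymic epithelial markers to 3.92 to 18.7 CPM in TG DN and 21.8 to 26.3 CPM in WT DN. These last 5 sums did not overlap between genotypes. The part of these lists in the members' values was not tested.

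In DN1, 0 members passed the test, and 0% of genes were called higher and 0% lower. At an unadjusted p under 0.05, 157 of 14845 genes passed, and DESeq2 called 3. S1pr1 had 146, 132 and 143 CPM in TG DN1, against 202 CPM in the single WT DN1 library, and Itgb7 had 684, 582 and 529 CPM in TG DN1, against 474 CPM in WT DN1. These levels were above those of DN3 in either genotype. DN1 libraries also held B-cell markers, which summed to 552 to 857 CPM in TG DN1 and 1310 CPM in WT DN1. Memory or activated T-cell markers summed to 1750 to 2050 CPM and 1450 CPM, and NK and innate markers to 602 to 729 CPM and 468 CPM. Myeloid markers summed to 250 to 501 CPM and 419 CPM. All these sums were above every DN3 library. Early thymocyte markers summed to 75.6 to 152 CPM and 82.5 CPM, against 1660 to 1780 CPM in TG DN3 and 1310 to 1490 CPM in WT DN3. The part of these lists was not tested.

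In DP cells the test called 0 members and 0% of genes higher and 0% lower, with 2450 of 11649 genes under an unadjusted p of 0.05 and 617 called by DESeq2. Itgb7 had 119, 95.6 and 39.1 CPM in TG DP, against 29.7, 24.2 and 22.2 CPM in WT DP (log2 1.73 ± 0.37, adjusted p = 0.213 by edgeR). Cd69 had 20.6, 11.1 and 32.7 CPM in TG DP, against 37.9, 49.9 and 53.2 CPM in WT DP (log2 -1.12 ± 0.37, adjusted p = 0.213 by edgeR). In both genes, the TG library nearest to WT was replicate 3, the one with Lmo2 at the WT level. Without it, Itgb7 was at 2.07 ± 0.19 (adjusted p = 0.00504) and Cd69 at -1.57 ± 0.32 (adjusted p = 0.0402), both by edgeR. Of 11919 genes tested in that fit, 569 were higher and 337 lower. Foxo1 was higher in all TG DP libraries, at 167, 109 and 116 CPM, than in WT DP, at 100, 80.6 and 75 CPM (log2 0.62 ± 0.21, adjusted p = 0.213 by edgeR). S1pr1, S1pr4 and Klf2 overlapped between genotypes. Early thymocyte markers summed to 77.8 to 219 CPM in TG DP and 51.9 to 58 CPM in WT DP, and their part in these values was not tested.

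**Figure D2:**
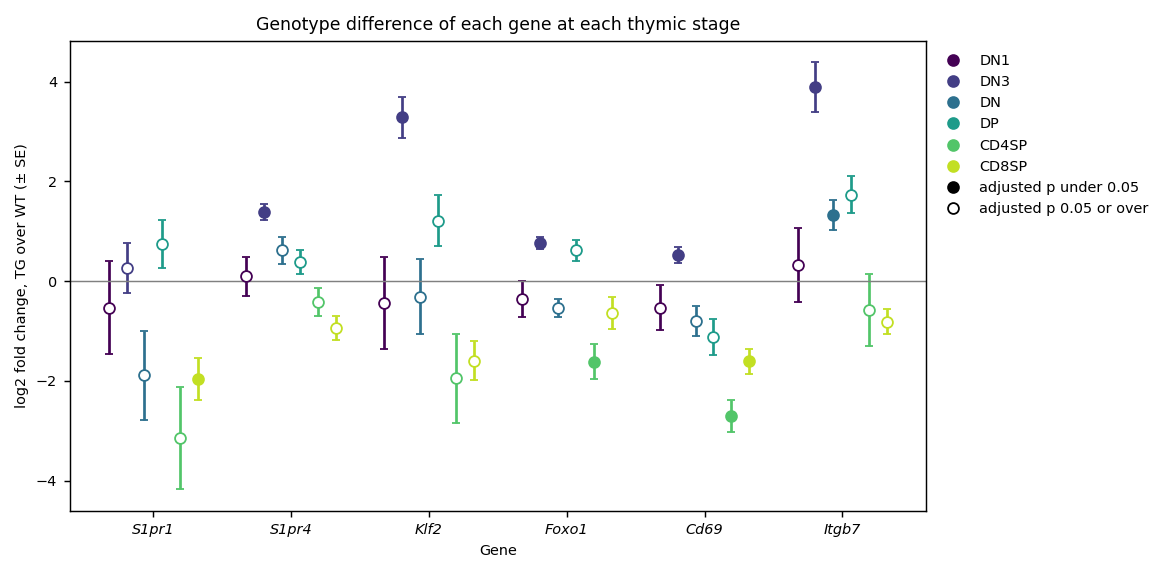
Log2 fold change of TG over WT (vertical axis, ± SE) for each gene (horizontal axis) at 6 thymic stages in colour, with filled points for an adjusted p under 0.05. Itgb7 and Klf2 are far above 0 in DN3 (3.89 and 3.28), while Cd69 is below 0 in CD4SP and CD8SP (-2.70 and -1.61).

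In CD4SP cells the transgenic animals had less Cd69 and less Foxo1, and 0 members rose. Of all genes tested, 15% were higher and 11% lower in TG CD4SP. Cd69 had 33, 22.1 and 46.2 CPM in TG CD4SP, against 178, 215 and 271 CPM in WT CD4SP, 6.51-fold lower (log2 -2.70 ± 0.32, adjusted p = 0.00703 by edgeR). Each TG library was well below each WT library, and the call held in all 13 alternative analyses. Foxo1 had 56.4, 111 and 139 CPM in TG CD4SP, against 366, 335 and 255 CPM in WT CD4SP (log2 -1.62 ± 0.35, adjusted p = 0.0212 by edgeR). The groups were apart, and 9 of 13 alternatives kept the call. Without WT CD4SP replicate 1 or 2 the adjusted p was 0.0938 and 0.0902 by edgeR, and with the replicate block 0.0524. Those fits called 38, 100 and 1362 genes in all, beside 3132 in the main fit. Without TG CD4SP replicate 3, 5 members were called lower, S1pr1 (-4.32 ± 1.09) and Klf2 (-3.46 ± 0.71) among them. Of 12254 genes tested in that fit, 1936 were higher and 1562 lower. The term for N leaves TG CD4SP replicate 2 alone to set against WT CD4SP. S1pr1 (-7.10 ± 0.86, adjusted p = 0.0068), Klf2 (-4.98 ± 0.96, adjusted p = 0.0186), Itgb7 (-3.23 ± 0.47, adjusted p = 0.00901) and Cd69 (-3.31 ± 0.41, adjusted p = 0.00727) were then called lower by edgeR, and Foxo1 (-1.51 ± 0.56, adjusted p = 0.105) was not.
S1pr1 had 21, 1.67 and 54.4 CPM in TG CD4SP, against 290, 232 and 173 CPM in WT CD4SP. The highest TG library was below the lowest WT library, but the TG libraries spread widely (log2 -3.15 ± 1.02, adjusted p = 0.0591 by edgeR). Klf2 had 46.5, 10.1 and 188 CPM in TG CD4SP, against 324, 375 and 257 CPM in WT CD4SP (log2 -1.95 ± 0.90, adjusted p = 0.148 by edgeR). Replicate 2, the library with the most Rag1 and Cd8a, was the lowest TG library for S1pr1, Klf2, Cd69 and Itgb7. Itgb7 had 228, 35.6 and 403 CPM in TG CD4SP, against 366, 354 and 289 CPM in WT CD4SP, and S1pr4 had 36, 44 and 70.9 CPM in TG CD4SP, against 71.4, 70.5 and 60 CPM in WT CD4SP. Both overlapped between genotypes.
Without TG CD4SP replicates 1 and 2, S1pr1 was at -2.11 ± 0.34, Cd69 at -2.29 ± 0.31 and Foxo1 at -1.22 ± 0.25. Klf2 was then at -0.79 ± 0.24, and Itgb7 turned to 0.23 ± 0.18. This fit leaves 1 TG library, whose spread is taken from WT. That library, replicate 3, had 825 CPM of Cd8a and 2270 CPM of Rag1, above every WT CD4SP library in both genes.

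Among the lists, those of immaturity and of T-cell receptor signalling had the most calls in TG CD4SP, where 15% of all genes were higher and 11% lower. Of 6 markers of immature thymocytes, 4 rose and 0 fell, led by Arpp21 (log2 4.09 ± 0.61) and Dntt (3.61 ± 0.54), the template-free polymerase of receptor gene assembly. Of 9 genes induced by T-cell receptor signalling, 0 rose and 7 fell, led by Junb (-3.05 ± 0.55) and Cd5 (-1.57 ± 0.30). Of 13 homing genes, 1 rose and 1 fell: Cxcr4 (1.98 ± 0.36), which retains thymocytes in the cortex, rose, and Ccr7 (-3.11 ± 0.80), which guides them to the medulla, fell. Of 10 maturation markers, 1 rose, Ifngr1 (1.96 ± 0.47), and 2 fell, H2-Q4 (-1.54 ± 0.30) and the survival gene Bcl2 (-2.89 ± 0.67). Ifngr1 was lower in WT CD4SP than in WT DP (-2.22 ± 0.16), so its rise in TG CD4SP was opposite to that WT change. Median log2 changes were -1.78 for the 6 members, 3.72 for the immaturity list, -2.02 for the receptor signalling list, -0.54 for the homing list and -0.53 for the maturation list, beside 0.05 for all genes tested. Summed markers of DP thymocytes were 2000 to 16700 CPM in TG CD4SP and 1660 to 2790 CPM in WT CD4SP, with all 7 of the 7 markers detected in both. B-cell markers summed to 19.5 to 54.9 CPM in TG CD4SP and 2.3 to 4.61 CPM in WT CD4SP. Early thymocyte markers summed to 132 to 483 CPM in TG CD4SP and 44.3 to 56.9 CPM in WT CD4SP, and myeloid markers to 26.2 to 90.2 CPM in TG CD4SP and 10.5 to 16.1 CPM in WT CD4SP. Markers of memory or activated T cells summed to 18.7 to 817 CPM in TG CD4SP and 250 to 268 CPM in WT CD4SP. The part of these lists in the members' values was not tested.

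In CD8SP cells all 6 genes were lower in each TG library than in each WT library. The share of all genes separated in this way was not counted. Of the 6 members, S1pr1 and Cd69 passed the test as lower and 0 rose, where 2.09% of all genes were higher and 2.36% lower. S1pr1 had 52.5, 22.8 and 20 CPM in TG CD8SP, against 112, 170 and 91 CPM in WT CD8SP, 3.9-fold lower (log2 -1.96 ± 0.42, adjusted p = 0.046 by edgeR). This call stood close to the threshold and held in 4 of 13 alternatives; leaving out any library but TG CD8SP replicate 1 gave adjusted p of 0.0616 to 0.19. Cd69 had 20.9, 17.3 and 30.5 CPM in TG CD8SP, against 87, 61.3 and 62.5 CPM in WT CD8SP (log2 -1.61 ± 0.25, adjusted p = 0.0222 by edgeR). It was called in 10 of 13 alternatives, and leaving out TG replicate 1, WT replicate 1 or WT replicate 2 ended the call (adjusted p 0.0621, 0.0979 and 0.0974 by edgeR). Those fits called 285, 18 and 9 genes in all, beside 520 with every library.
Klf2 had 94.5, 48.9 and 33 CPM in TG CD8SP, against 202, 208 and 127 CPM in WT CD8SP (log2 -1.60 ± 0.39, adjusted p = 0.0697 by edgeR). S1pr4 had 38.7, 25.8 and 43.9 CPM in TG CD8SP, against 69.9, 83 and 53.9 CPM in WT CD8SP (log2 -0.93 ± 0.24, adjusted p = 0.0852 by edgeR). Itgb7 had 195, 184 and 138 CPM in TG CD8SP, against 286, 403 and 219 CPM in WT CD8SP (log2 -0.81 ± 0.25, adjusted p = 0.132 by edgeR). The differences of Klf2, S1pr4, Itgb7 and Foxo1 (-0.64 ± 0.32, adjusted p = 0.334 by edgeR) thus all had the same sign as those of S1pr1 and Cd69 and missed the threshold.
Without replicate 3 of each CD8SP group, Cd69 was at -1.95 ± 0.23 (adjusted p = 0.0198 by edgeR) and S1pr1 at -1.90 ± 0.45 (adjusted p = 0.0884 by edgeR). Homing genes moved in the same libraries: 0 of 13 rose and 4 fell, among them Ccr7 (-2.37 ± 0.32), Il7r (-1.73 ± 0.27), the interleukin 7 receptor, and Gpr183 (-1.53 ± 0.27), an oxysterol receptor. Of 10 maturation markers, H2-Q7 (-3.36 ± 0.42) and Slfn1 (-2.48 ± 0.36) fell and Ly6c1 (1.90 ± 0.39) rose. Of 6 immaturity markers, 0 rose and 0 fell. Of 9 genes induced by T-cell receptor signalling, 0 rose and 2 fell, Junb (-1.61 ± 0.22) and Egr3 (-1.58 ± 0.31), with a median of -0.99. Median log2 changes were -1.26 for the 6 members, -0.46 for the homing list, -0.89 for the maturation list and 0.53 for the immaturity list, beside 0 for all genes tested. DP markers summed to 3810 to 13900 CPM in TG CD8SP and 4130 to 9120 CPM in WT CD8SP. Markers of memory or activated T cells summed to 61.4 to 131 CPM in TG CD8SP and 140 to 249 CPM in WT CD8SP, and NK and innate markers to 21.5 to 64.5 CPM in TG CD8SP and 72.6 to 147 CPM in WT CD8SP. Early thymocyte markers summed to 94.4 to 171 CPM in TG CD8SP and 59.1 to 72.3 CPM in WT CD8SP. In these 3 lists the genotypes did not overlap, as for the 6 members, and the part of the lists in the members' values was not tested.

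**Figure D3:**
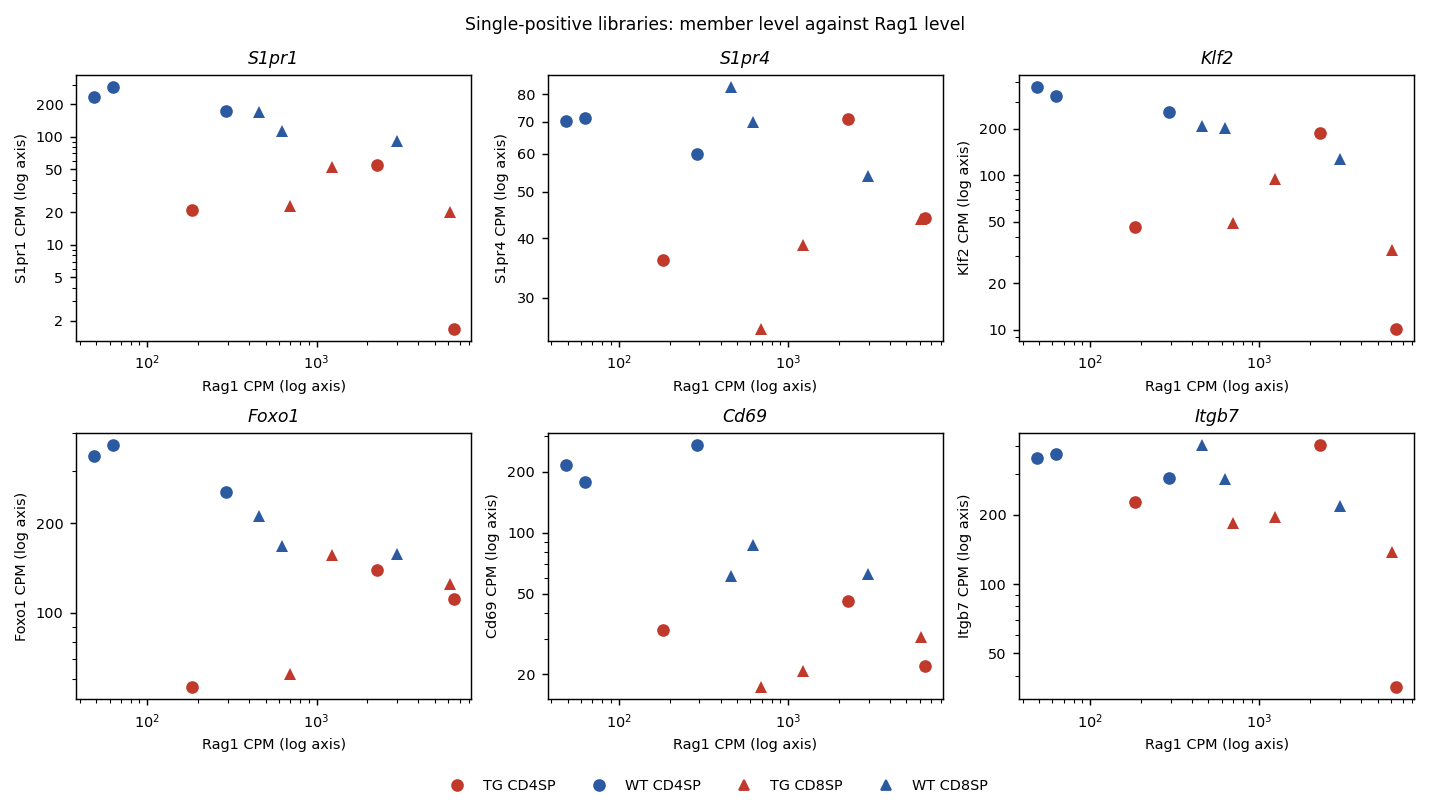
CPM of each gene (vertical log axis) against CPM of Rag1 (horizontal log axis) in the 12 single-positive libraries, circles for CD4SP, triangles for CD8SP, red for TG and blue for WT. For S1pr1, Klf2, Foxo1 and Cd69, every TG library lies below every WT library of its own stage, while S1pr4 and Itgb7 overlap in CD4SP.

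The fitted genotype difference was positive in DN3 and negative in CD4SP and CD8SP for all 6 genes. Whether it differed between stages was tested as an interaction over 12 libraries, chosen for these stages after the levels were seen. Between CD4SP and DN3, all 6 interactions were negative and called, where 15.8% of all genes were positive and 15.1% negative. They were largest for Klf2 (-5.31 ± 1.11, adjusted p = 0.0063 by edgeR) and Itgb7 (-4.54 ± 0.97, adjusted p = 0.00688 by edgeR). Cd69 (-3.29 ± 0.34), Foxo1 (-2.45 ± 0.38) and S1pr4 (-1.84 ± 0.32) had adjusted p of 0.000324, 0.00158 and 0.00278 by edgeR. The interaction of S1pr1 (-3.49 ± 1.22, adjusted p = 0.0499 by edgeR) was called in 5 of 19 alternatives and the other 5 in all 19. With the term for N, S1pr1 was at -7.39 ± 1.06, Klf2 at -8.29 and Itgb7 at -7.15. Between CD8SP and DN3, 5 of 6 were called negative and 0 positive, against 1.75% of all genes positive and 5.22% negative. Klf2 (-4.89 ± 0.63) and Itgb7 (-4.72 ± 0.59) again led, with adjusted p of 0.00143 and 0.00112 by edgeR, and S1pr1 (-2.24 ± 0.71) did not pass (adjusted p = 0.0846 by edgeR). Both interactions share the DN3 libraries.
Between CD4SP and DP, 1 member was called negative, Foxo1 (-2.27 ± 0.42, adjusted p = 0.0241 by edgeR), and 0 positive, against 2.15% of all genes positive and 0.742% negative. It was lost without TG DP replicate 1, WT CD4SP replicate 1 or 2, or WT DP replicate 2 or 3, and without TG CD4SP replicate 3, 4 members were called. Between CD8SP and DP, 0 members were called in either direction, against 0% positive and 0.14% negative; Itgb7 stood at -2.52 ± 0.49 (adjusted p = 0.0738 by edgeR), and at -2.86 ± 0.35 (adjusted p = 0.0166 by edgeR) without TG DP replicate 3. With 12186 genes tested there, 17 were called by edgeR and 175 by DESeq2, which called 3 members. With the replicate block, edgeR called 2 members, Klf2 (-2.77 ± 0.45, adjusted p = 0.0311) and Itgb7 (-2.40 ± 0.34, adjusted p = 0.0208).

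Within transgenic animals the step from DP to single-positive was smaller than in WT in the fitted value of each gene and was not called; the tests of that difference are the interactions with DP above. In TG CD4SP over TG DP, 0 members passed, and 0% of genes were higher and 0% lower. Of 11907 genes, 614 passed an unadjusted threshold of 0.05 there, and 98 were called by DESeq2. S1pr1 was at 2.92 ± 1.09 and Klf2 at 2.15 ± 1.04 on the log2 scale (adjusted p = 0.778 for each by edgeR), and TG CD4SP replicate 2 (1.67 CPM of S1pr1 and 10.1 CPM of Klf2) lay within or below the TG DP range. Without TG CD4SP replicates 1 and 2, S1pr1 was at 3.97 ± 0.51 (adjusted p = 0.0352 by edgeR). Without TG CD4SP replicate 2 alone, 1 member was called.
In TG CD8SP over TG DP, 0 members and 0% of genes were called higher or lower, with 2660 of 11741 genes under an unadjusted p of 0.05 and 1132 called by DESeq2. All TG CD8SP libraries had more S1pr1, at 52.5, 22.8 and 20 CPM, than TG DP, at 3.89, 1.85 and 4.69 CPM (log2 3.20 ± 0.51, adjusted p = 0.145 by edgeR). The labels do not say that these samples are paired. Same-numbered libraries deviated alike from their group means in these counts (r of 0.27, 0.63 and 0.22). Both replicate 2 columns end in N. If the numbers are taken as pairs in a replicate block, edgeR called 841 genes and 3 members. These were S1pr1 (3.16 ± 0.39, adjusted p = 0.0197), Klf2 (1.75 ± 0.27, adjusted p = 0.0246) and Itgb7 (1.17 ± 0.23, adjusted p = 0.0343). Without TG CD8SP replicate 3 and with no block, 1 member was called.

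**Figure D4:**
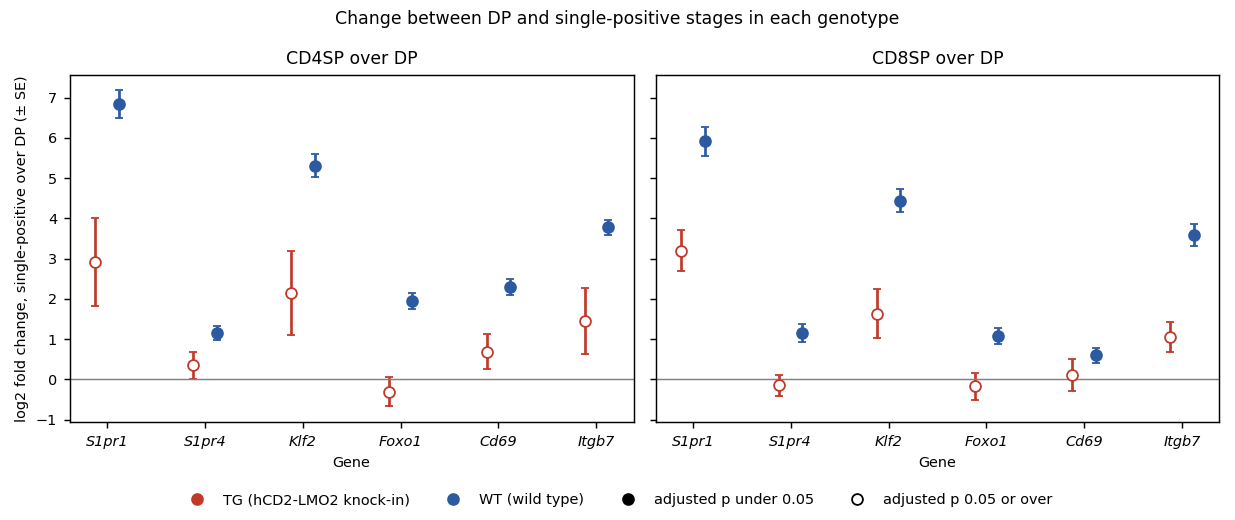
Log2 fold change of single-positive over DP cells (vertical axis, ± SE) for each gene (horizontal axis), CD4SP left and CD8SP right, TG points in red left of WT points in blue, filled where the adjusted p is under 0.05. All 12 WT points are filled and above 0, and none of the 12 TG points is filled in the fit without a replicate block.

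Splenic T cells, sampled from TG mice only, had the highest levels of most members. In S_CD8 over CD8SP, all 6 genes rose and 0 fell, against 17.2% of all genes higher and 20.1% lower. S1pr1 had 306, 632 and 544 CPM in TG S_CD8, against 52.5, 22.8 and 20 CPM in TG CD8SP, 14.9-fold higher (log2 3.90 ± 0.50, adjusted p = 0.00263 by edgeR). Klf2 had 311, 825 and 918 CPM in TG S_CD8, against 94.5, 48.9 and 33 CPM in TG CD8SP (log2 3.48 ± 0.57, adjusted p = 0.00584 by edgeR). No S_CD8 library overlapped a TG CD8SP library in either gene. S_CD8 replicate 1, which carried B-cell genes, was the lowest spleen library for all 6. Without S_CD8 replicate 1 all 6 were still higher, with S1pr1 at 4.15 ± 0.47. S1pr4 (2.13 ± 0.39), Itgb7 (2.11 ± 0.46), Cd69 (1.88 ± 0.38) and Foxo1 (1.51 ± 0.37) had adjusted p of 0.00781, 0.0143, 0.0117 and 0.0213 by edgeR.
In S_CD4 over CD4SP, 4 members rose and 0 fell, against 12.5% of all genes higher and 12% lower. S1pr1 had 537, 444 and 394 CPM in TG S_CD4, against 21, 1.67 and 54.4 CPM in TG CD4SP (log2 4.15 ± 1.08, adjusted p = 0.0363 by edgeR). S1pr4 (2.03 ± 0.28), Foxo1 (1.86 ± 0.33) and Cd69 (1.08 ± 0.30) had adjusted p of 0.00923, 0.0141 and 0.0419 by edgeR. Klf2 (2.97 ± 0.95, adjusted p = 0.0622) and Itgb7 (2.32 ± 0.77, adjusted p = 0.0694) missed the threshold by edgeR, although every spleen library was above every CD4SP library. With S_CD4 replicate 1, 2 or 3 left out, 1, 1 and 2 members were called, and without TG CD4SP replicate 1, 2 were. Without TG CD4SP replicates 1 and 2, Klf2 (1.77 ± 0.19, adjusted p = 0.0273) and Itgb7 (1.47 ± 0.24, adjusted p = 0.0477) were called by edgeR, and Cd69 was not (0.64 ± 0.23, adjusted p = 0.164).
Spleen libraries held other cells. Of 6 B-cell markers, 5 were in the table and summed to 435 to 1800 CPM in S_CD4 and 464 to 3350 CPM in S_CD8, against 19.5 to 54.9 CPM in TG CD4SP and 8.12 to 26 CPM in TG CD8SP. Myeloid markers summed to 367 to 2800 CPM in S_CD4 and 83.6 to 2690 CPM in S_CD8, against 26.2 to 90.2 CPM in TG CD4SP and 5.09 to 20.2 CPM in TG CD8SP. Erythroid markers summed to 1060 to 57500 CPM in S_CD4, the highest in replicate 3, and 185 to 689 CPM in S_CD8, against 84.4 to 324 CPM in TG CD4SP and 31.6 to 182 CPM in TG CD8SP. Dendritic-cell markers summed to 202 to 411 CPM in S_CD4 and 155 to 494 CPM in S_CD8, against 3.3 to 71.2 CPM in TG CD4SP and 1.19 to 57.2 CPM in TG CD8SP. Markers of memory or activated T cells summed to 602 to 2630 CPM in S_CD8, against 61.4 to 131 CPM in TG CD8SP, and NK and innate markers to 99.3 to 872 CPM in S_CD8, against 21.5 to 64.5 CPM in TG CD8SP. The part of these lists in the members' levels was not tested. Between S_CD8 and S_CD4, edgeR and DESeq2 each called 0 members in either direction, against 0.105% of genes higher and 0.386% lower by edgeR. The log2 differences lay between -0.52 ± 0.45 (Itgb7) and 0.29 ± 0.33 (Cd69), and the libraries overlapped in all 6 genes.

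Across the 14 group means of log2 CPM, the 6 genes followed each other, with Pearson's r of 0.68 (Cd69 and Itgb7) to 0.93 (S1pr1 and Klf2). These are descriptions over groups that share tissue and cell preparation. The genes named as most like each member, up to 3 for each, were taken from 9881 genes with a mean of at least 5 CPM. For S1pr1 they were Ms4a4b (r = 0.986), Art2b (0.978) and Il6ra (0.977), and for S1pr4 Myo1g (0.977) and Tnfaip8l2 (0.971). For Klf2 they were Chd7 (0.978), Cyth3 (0.973) and Add3 (0.967), and for Foxo1 Ly9 (0.985), Stk24 (0.975) and Ier5 (0.974). Cd69 was closest to Mapk11 (0.969), St6gal1 (0.957) and Cytip (0.957), and Itgb7 to Stk10 (0.971), Cnn2 (0.962) and Add3 (0.961).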

How the data were processed

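RNA was extracted from sorted cells and sequenced, per the labels' protocols. The authors' deposited table gives a read count and an FPKM value per gene and library. Per the submitters' processing notes, the tools included HISAT, Bowtie2, MACS2 and DESeq2 (versions not stated), with mm9 and mm10 as builds; no source used here names the counting tool. The deposited FPKM values were used only to compare levels between genes. The test was that of edgeR 4.0.16 (R 4.3.3): filterByExpr (minimum count 10, minimum total 15), TMM, robust quasi-likelihood test, two-sided, Benjamini-Hochberg adjustment over all genes, threshold 0.05, prior count 0.125. The SE is the log2 fold change divided by the root of F. Each comparison used its own 6 libraries, interactions 12, and DN1 a fit of all 40, in which the 1 WT DN1 library is assumed to vary like the others. The alternatives were DESeq2 1.42.0, RLE size factors, no filter, 1 fit of all libraries, a replicate block, a term for 12 columns whose names end in N, and leaving out libraries. Leaving out TG CD4SP replicates 1 and 2, leaving out replicate 3 of each CD8SP group, and the interactions with DN3 were chosen after seeing the data. Replicate numbers come from the sample titles; same-numbered deviations from the group means correlated above 0.1 in all 3 pairs for TG CD8SP and DP only (0.27, 0.63 and 0.22). Likeness used log2 of CPM plus 0.5. Named are the 6 members, the sort markers and, of each list, at most the 3 genes with the smallest adjusted p; Itga4 and Itgae, S1pr3's levels and the marker genes of other cells were added, and a few genes that the rule names are not reported here. The members and lists were chosen with earlier results of these data known. In the table, 4 columns (2 of counts) are not analysed here. Tests were tried on simulated counts. Intervals and p-values cover no PCR duplication.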

Additional observations from a re-analysis of the deposited data

Results flagged for a closer look

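The genotype effect (TG over WT) differed between stages by an interaction test in edgeR, which brings the following values forward, in log2 units with adjusted p. The interactions with DN3 were chosen after the opposite signs in DN3 and single-positive cells were seen. Their adjusted p is therefore no independent support for that pattern. Between CD4SP and DN3 the difference was -3.49 for S1pr1 (0.0499), -1.84 for S1pr4 (0.00278), -5.31 for Klf2 (0.0063), -3.29 for Cd69 (0.000324), -4.54 for Itgb7 (0.00688) and -2.45 for Foxo1 (0.00158). Between CD8SP and DN3 it was -2.32 for S1pr4 (0.00164), -4.89 for Klf2 (0.00143), -2.16 for Cd69 (0.00166), -4.72 for Itgb7 (0.00112) and -1.42 for Foxo1 (0.0421). Between CD4SP and DP it was -2.27 for Foxo1 (0.0241). For S1pr4, Klf2, Cd69, Itgb7 and Foxo1 the TG libraries were all above WT in DN3 and all below WT in CD8SP. The share of all genes with this pattern was not counted. The S1pr1 value and the Foxo1 value of CD8SP were called in 5 and 8 of 19 alternatives, and the Foxo1 value against DP in 12 of 19. The level of Rag1 differed among the single-positive libraries, and its part in these differences was not tested.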

How the results depend on the processing

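Of 52 member calls by edgeR, DESeq2 kept 52, RLE size factors 51, no filter on low counts 50, 1 fit of all libraries 46 and the replicate block 44; the term for column names ending in N kept 42 of 47, with no such column in the DN3 groups and so no value for TG over WT DN3. None of these calls turned round in any alternative. Leaving out 1 library kept 317 of 384 calls, leaving out TG CD4SP replicates 1 and 2 kept 10 of 13, and leaving out replicate 3 of each CD8SP group kept 18 of 23. Levels as total-count CPM or FPKM left all 60 level ratios in the same direction. The causes of the changes below were not tested.

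Counts of members called that moved by over 1.5 times were as follows. With DESeq2 they were 2 for TG over WT DP, 4 for CD4SP, 5 for CD8SP, 2 for TG CD8SP over DP, and 3 for each of the interactions of CD4SP and CD8SP with DP. Of all genes, DESeq2 called 617 of 11658 for DP, 4441 of 13536 for CD4SP and 1292 of 13304 for CD8SP. With 1 fit of all libraries they were 0 for DN, 1 for DP, 4 for CD4SP, 2 for WT CD8SP over CD4SP, 1 each for TG CD4SP and TG CD8SP over DP, and 5 for the CD4SP interaction with DP. Of 14845 genes, that fit called 1727 for DN, 695 for DP and 5723 for CD4SP. With no filter, 1 was called for CD8SP, and with the term for N, 0 for DN, 4 for CD4SP, 1 for CD8SP and 1 for TG CD8SP over DP. With the replicate block, 1 was called for CD4SP, 4 for CD8SP, 3 for TG CD8SP over DP, and 0 and 2 for the CD4SP and CD8SP interactions with DP. Of all genes, the block called 1362 of 12073 for CD4SP and 798 of 11697 for CD8SP. For CD8SP, the fit with no filter called 537 of 16186 genes and the term for N 469 of 11697. By the labels the samples share only a number. Each library correlated best with its own number in 3 of 3 pairs for TG over WT DN, WT CD8SP over DP and TG CD8SP over DP. Without TG CD4SP replicates 1 and 2, 1 was called for TG CD4SP over DP and 0 for its interaction; without replicate 3 of each CD8SP group, 1 was called for CD8SP and 1 for TG CD8SP over DP. With 1 library left out, counts ranged over 0 to 2 for DN, 0 to 2 for DP, 1 to 5 for CD4SP, 0 to 2 for CD8SP, 2 to 4 for WT CD8SP over CD4SP, 0 to 1 for TG CD4SP over DP, 0 to 1 for TG CD8SP over DP, 1 to 5 for S_CD4 over CD4SP, and 0 to 4 and 0 to 1 for the CD4SP and CD8SP interactions with DP. The genes called in all then ranged over 179 to 3146 for DN and 0 to 906 for DP. For CD4SP they ranged over 38 to 4329, and for CD8SP over 9 to 724.

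Uncalled log2 values that turned round were these. Without TG CD4SP replicates 1 and 2, S1pr4 was at 0.05 and Itgb7 at 0.23 for TG over WT CD4SP, and Foxo1 at 0.11 for TG CD4SP over DP. Without replicate 3 of each CD8SP group, Itgb7 was at 0.07 for WT CD8SP over CD4SP and Cd69 at -0.16 for TG CD8SP over DP. For S_CD8 over S_CD4, Klf2 was at -0.03 with the replicate block and -0.04 with the term for N. With 1 library left out, ranges that crossed 0 were -0.20 to 0.69 (S1pr1, TG over WT DN3), -1.18 to 0.20 (Klf2, TG over WT DN), -0.56 to 0.20 (Klf2, WT DP over DN3), -0.09 to 0.22 (S1pr4) and -0.38 to 0.07 (Itgb7) for WT CD8SP over CD4SP. For TG CD8SP over DP they were -0.31 to 0.09 (S1pr4), -0.19 to 0.55 (Cd69) and -0.47 to 0.13 (Foxo1). For S_CD8 over S_CD4 they were -0.10 to 0.38 (S1pr1), -0.52 to 0.00 (S1pr4), -0.16 to 0.46 (Klf2) and -0.26 to 0.06 (Foxo1). With 3 libraries a group, members near the threshold are not settled at this size, and S1pr1 is below 5 CPM in all DN3 and DP libraries, where its counts are few.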
